A study of Homo sapiens with 2 samples.

Results

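The contacts described here are those of chromosome 22 in METTL3 HiChIP of IMR90, a fibroblast line from human embryonic lung. They were chosen by position alone, as every listed pair of intervals on chromosome 22 in hg19. The senescent library listed 4223 such interactions and the control library 59, together 4282 of the 162611 interactions listed in both tables. The senescent cells had been driven into senescence by inducing a fusion of the estrogen receptor with H-RASG12V, an oncogenic form of the GTPase H-RAS. The control cells were IMR90 cells labelled as the control of that treatment. Both were labelled wild type and grown under low oxygen, and the labels do not say whether the control cells carried the fusion without induction, which agent induced it or for how long. Each state was measured in 1 library, so differences are between these libraries with no replicate check, and every interval is a 95% interval that covers counting error only.

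HiChIP joins DNA ends that lie close together in fixed nuclei and then enriches the joined fragments that carry the protein of interest. METTL3 is the catalytic subunit of the enzyme complex that writes N6-methyladenosine on RNA, and it can be recruited to chromatin while RNA is made. Each deposited row gives a pair of genomic intervals, called anchors, and how many paired-end tags (PETs) link them. Chromosome 22 is a short acrocentric chromosome: its short arm holds mostly repeats and ribosomal DNA, and its long arm is rich in genes. Whether METTL3 bound at the anchors was not measured by these tables.

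No annotation of hg19 was used. Gene names beside an interval are landmarks from general knowledge of the hg19 map, given as background, and no contact was assigned to a gene. The 11 landmark genes of the most connected anchors follow each other along RefSeq's list of chromosome 22 genes (GRCh38.p14) in the same order as their anchors in hg19. A shared order does not show that a gene lies within its anchor. The restriction enzyme used, MboI, cuts at GATC, so ends can be joined only where those letters occur. As an illustration of such sites, the 250 bases before the start of 3 landmark genes are printed below from RefSeq (GRCh38.p14), with GATC in capitals. MAFF and ATF4 are landmarks of the most connected senescent anchors, and MRTFA is that of the most connected control anchor. The printed stretches were not placed within these anchors and no anchor sequence was read, so their GATC counts do not describe the anchors. RefSeq's table of promoters held 9 of the 12 landmark genes sought, and 2 of the 9 hold GATC there, both of them among the 3 printed.
MAFF (plus strand): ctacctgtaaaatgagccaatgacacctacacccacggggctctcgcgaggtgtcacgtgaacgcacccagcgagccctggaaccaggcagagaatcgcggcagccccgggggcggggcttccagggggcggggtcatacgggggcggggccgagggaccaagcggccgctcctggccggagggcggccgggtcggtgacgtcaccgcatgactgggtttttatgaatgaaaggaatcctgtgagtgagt
ATF4 (plus strand): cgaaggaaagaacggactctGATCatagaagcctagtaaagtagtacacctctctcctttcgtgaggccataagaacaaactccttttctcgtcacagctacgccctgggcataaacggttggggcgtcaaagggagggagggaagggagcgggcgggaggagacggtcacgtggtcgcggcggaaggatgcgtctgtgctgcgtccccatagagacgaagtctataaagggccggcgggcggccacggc
MRTFA (minus strand): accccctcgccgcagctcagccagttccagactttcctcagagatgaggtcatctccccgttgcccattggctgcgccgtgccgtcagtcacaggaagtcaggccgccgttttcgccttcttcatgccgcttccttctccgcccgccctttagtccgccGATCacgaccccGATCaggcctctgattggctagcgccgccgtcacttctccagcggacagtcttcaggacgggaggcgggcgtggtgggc
The MAFF stretch holds no GATC, the ATF4 stretch holds 1 and the MRTFA stretch holds 2. GATC reads the same on both strands. Over the RefSeq promoters of chromosome 22, 242 of 668 such stretches (36.2%) hold at least 1, and over all chromosomes 12569 of 35116 (35.8%) do.

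Chromosome 22 held far more contacts in the senescent library than in the control library, beyond the difference in size of the tables. Its 4223 senescent interactions carried 5177 PETs, and its 59 control interactions carried 71 PETs, an unscaled PET ratio of 72.9 (57.7 to 93.5, exact conditional binomial interval). Over all chromosomes, the PETs of the senescent table numbered 12.8 times those of the control table. As a share of autosomal interactions, chromosome 22 made up 2.83% of the senescent table (2.75 to 2.91%, exact Clopper-Pearson interval) and 0.484% of the control table (0.369 to 0.624%). The ratio of these shares was 5.85 (4.52 to 7.70). It was 1.41 (1.18 to 1.71) for chromosome 21, the other short acrocentric autosome, 3.12 (2.62 to 3.76) for chromosome 20 and 17.3 (12.7 to 24.4) for chromosome 19. These intervals do not overlap that of chromosome 22. Among interactions with at least 2 PETs, the ratio for chromosome 22 was 3.80 (2.16 to 7.39).

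The anchors differed in number more than in width. The senescent library listed 1796 anchors that covered 6.88 Mb of chromosome 22, against 68 anchors and 0.200 Mb in the control library. Their median width was 2882 bp (2806 to 2957 bp) for senescent and 2609 bp (2373 to 2900 bp) for control anchors, and these intervals overlap. Anchors over 10 kb numbered 58 in the senescent library (3.23%, 2.46 to 4.15%), with the widest at 25693 bp. The control library had none, which with 68 anchors allows a share of up to 5.28% (exact Clopper-Pearson interval), and its widest anchor measured 5845 bp.

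Contacts ran along the whole listed part of the long arm in the senescent library and lay in few places in the control library. In 1-Mb windows by contact midpoint, all 35 windows from 17 to 52 Mb held senescent contacts. Control contacts fell in 15 of them, and 20 windows had senescent contacts alone. That is 57.1% of the windows of chromosome 22, against 32.3% of the autosomal windows with contacts in either library. No window of chromosome 22 had control contacts alone, and 34 of the 2382 autosomal windows did (1.43%). With 35 windows no difference can be read from the shares with control contacts alone. Among windows with at least 20 PETs in sum, 17 of 32 on chromosome 22 (53.1%) had senescent contacts alone, against 23% over the autosomes. The windows share 1 library per state, and these differences were not tested. Of the 15 windows listed in both libraries, all with at least 20 PETs in sum, 11 held at least 2 times as many senescent as control PETs per deposited PET and none held 2 times fewer. The shares over the autosomes were 31.1% and 33%. When each library was scaled to its own PETs on chromosome 22, the counts became 4 windows at least 2-fold higher and 5 at least 2-fold lower in the senescent library.

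**Figure D1:**
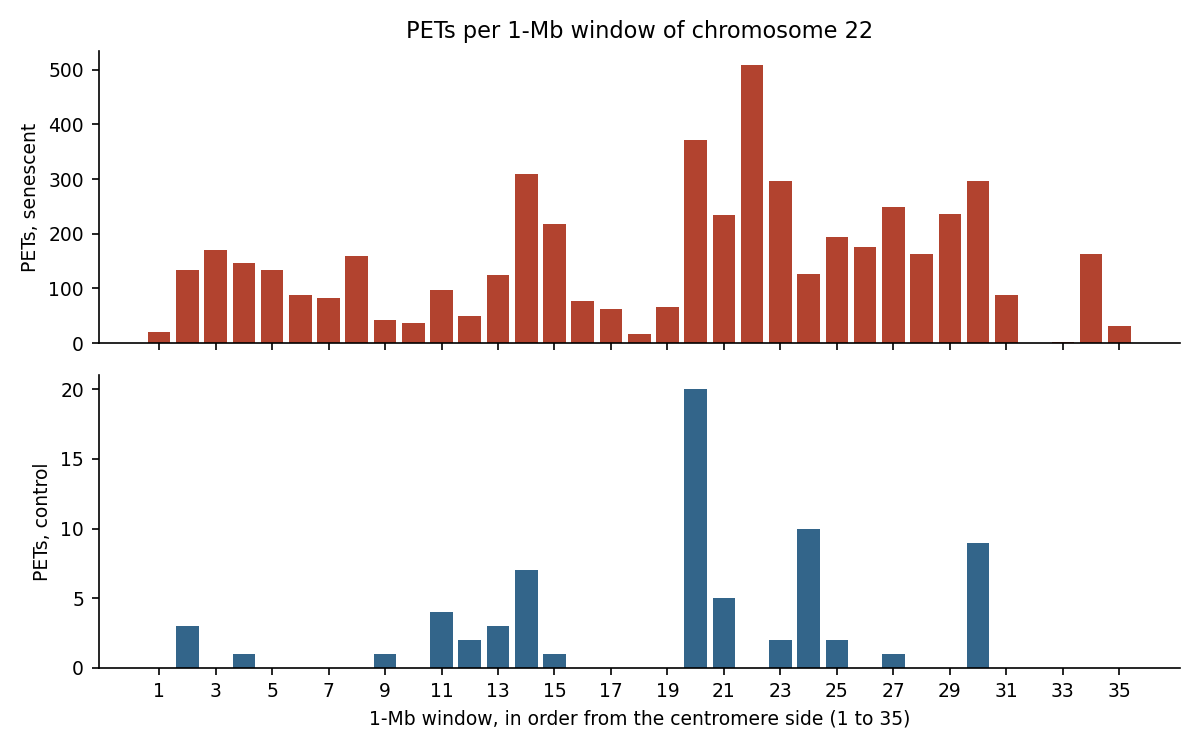
PETs per 1-Mb window of chromosome 22 in order from the centromere side, with the senescent library (top) and the control library (bottom) on their own vertical scales. The senescent bars peak at 509 PETs in window 22, where the control panel is empty, and the tallest control bar, 20 PETs, stands in window 20.

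The fullest senescent window was 38 to 39 Mb, with 509 PETs in 362 interactions and none in the control library. It is the stretch known to hold TRIOBP, an actin-bundling protein gene, the small MAF transcription factor gene MAFF, and CSNK1E, a casein kinase gene. The window 36 to 37 Mb came next with 372 PETs, against 20 in the control library, where it was the fullest. The windows 30 to 31, 39 to 40 and 46 to 47 Mb held 309, 296 and 296 senescent PETs, against 7, 2 and 9 control PETs. The first of them is known to hold LIF and OSM, neighbouring genes of the interleukin-6 family of cytokines. The windows 43 to 44, 45 to 46 and 37 to 38 Mb completed the 8 fullest with 249, 236 and 235 senescent PETs, against 1, 0 and 5 control PETs. Together these 8 windows held 48.3% of the senescent PETs of the chromosome.

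Most control contacts lay in few windows, of which all but 40 to 41 Mb were also among the 8 fullest of the senescent library. The 4 fullest control windows held 46 of the 71 control PETs (64.8%). These were 36 to 37 Mb (20 PETs), 40 to 41 Mb (10), 46 to 47 Mb (9) and 30 to 31 Mb (7). The next 4 were 37 to 38, 27 to 28, 18 to 19 and 29 to 30 Mb, which held 235, 98, 133 and 125 senescent PETs, against 5, 4, 3 and 3 control PETs. The window 40 to 41 Mb, known to hold most of MRTFA, the gene of an actin-regulated coactivator, held 127 senescent PETs. Its ratio per deposited PET was 0.991 (0.522 to 2.12), the lowest of the chromosome. That of 36 to 37 Mb was 1.45 (0.926 to 2.40), and both intervals hold 1. The highest ratios rested on 1 control PET each, as in 43 to 44 Mb (19.4, 3.46 to 771) and 31 to 32 Mb (16.9, 3.01 to 672). Across the 35 windows the PETs of the libraries ranked alike in part, with Spearman's rho of 0.44, a description over windows of 1 chromosome that share each library.

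Some stretches were nearly empty in both libraries. The windows 48 to 49 and 49 to 50 Mb held 1 and 3 senescent PETs and no control PET, next to 163 senescent PETs in 50 to 51 Mb. The window 34 to 35 Mb held 17 senescent PETs. Of the 34 borders between windows, the least crossed were those at 49, 50 and 35 Mb, with 1, 2 and 3 senescent PETs. The median over all borders was 27, and each of the least crossed adjoins a nearly empty window named above. The most crossed were those at 46 Mb (84 PETs) and 38 Mb (80 PETs). Control PETs crossed 4 borders, with 5 of 8 such PETs at 41 Mb.

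Within the window that was full in both libraries, most senescent PETs lay beyond the control contacts. The control contacts there ran from 35964594 to 36420435, the stretch known to hold RBFOX2, the gene of an RNA-binding splicing regulator. Of the senescent PETs of that window, 59 lay at or before its end, 55 crossed it and 258 (69.4%) lay wholly beyond it. All 20 control PETs lay within it, which the choice of its end fixes. Senescent anchors overlapped 11 of the 16 control anchors of that stretch, against 57 of the 68 control anchors of the chromosome. With 16 anchors no difference is read from these shares. The dense senescent contacts beyond it surround MYH9, the gene of non-muscle myosin heavy chain IIA, which bundles and contracts actin. In RefSeq's order 4 protein-coding genes, all of the APOL family, separate RBFOX2 from MYH9. Senescent spans had a median of 79.0 kb before the end of the control contacts and 49.5 kb beyond it.

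The 5 senescent interactions with the most PETs lay in 3 stretches, and each joined anchors less than 100 kb apart. The interaction with the most PETs joined 38134521 to 38150532 and 38160605 to 38183848, in the stretch known to hold TRIOBP, with 15 PETs. Next came 38595837 to 38618180, known to hold MAFF, joined to 38673979 to 38696954 over 78.5 kb with 11 PETs. The other 3 of the first 5 share the anchor 36743291 to 36768691, known to lie within MYH9. It was joined to 36769515 to 36773730 with 11 PETs, to 36774474 to 36787020 with 10 PETs and to 36719243 to 36733125 with 8 PETs, a number that 1 other interaction shared and that was ranked here by the deposited significance value. The control library listed no anchor at these sites, and only 54 of all 1796 senescent anchors of the chromosome overlapped a control anchor. Interactions with at least 5 PETs numbered 31, and 11 of them lay in the 36 to 37 Mb window, 5 in 38 to 39 Mb and 4 in 39 to 40 Mb. Their median span was 13.6 kb (11.4 to 24.8 kb), against 114 kb (107 to 123 kb) for the 3619 senescent interactions with 1 PET.

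No control interaction of chromosome 22 had more than 2 PETs. By that value, the first of the 12 with 2 PETs were 36024375 to 36026844 joined to 36235175 to 36238341 over 211 kb, and 37649758 to 37652279 joined to 37722567 to 37725404 over 73.0 kb. Then came 2 pairs in the MRTFA stretch, 40904467 to 40909698 with 40993247 to 40995252 and 40923081 to 40924991 with 40998417 to 41003284. The fifth joined 18115155 to 18117188 and 18188301 to 18191793. At least 2 PETs were found in 14.3% of senescent interactions (13.3 to 15.4%) and 20.3% of control interactions (10.98 to 32.8%), and these intervals overlap. At least 3 PETs were found in 4.40% of senescent interactions and in no control interaction.

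Long contacts were listed in the senescent library alone. Spans of 500 kb to 2 Mb made up 637 of the 4223 senescent interactions (15.1%, 14.02 to 16.2%), against 0 of 59 control interactions, which allows a share of up to 6.06% (exact Clopper-Pearson interval). On the other autosomes the control library listed 1745 such spans among 12135 interactions (14.4%, 13.8 to 15.02%). On chromosome 21 they were 17 of 125 (13.6%, 8.13 to 20.9%), and on chromosome 19 they were 5 of 39 (12.8%, 4.30 to 27.4%). The upper limit on chromosome 22 lies below the interval of the other autosomes and below that of chromosome 21, and within that of chromosome 19. The longest control contact of chromosome 22 spanned 407 kb, from 20310514 to 20720191, and was also listed in the senescent library. Others of 394 kb, from 30016900 to 30413492, and 342 kb, from 36024375 to 36369051, followed. The longest senescent contacts were 1 PET each, from 21554375 to 23564228, from 25813967 to 27814117 and from 43003449 to 45003598.

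The median span was 87.1 kb in the senescent library (82.1 to 94.3 kb) and 64.0 kb in the control library (25.6 to 88.8 kb), with overlapping intervals. Among spans up to 500 kb the medians were 62.6 and 64.0 kb, and among interactions with at least 2 PETs they were 20.8 and 50.3 kb. The last of these rested on 12 control interactions (19.4 to 76.8 kb). Within the senescent library the median span differed along the chromosome. Among the 26 windows with at least 50 interactions it ran from 54.8 kb in 50 to 51 Mb (42.5 to 78.1 kb) to 218 kb in 44 to 45 Mb (127 to 308 kb). The share of senescent interactions with at least 2 PETs fell with span, being 34.9% under 20 kb, 16.2% from 20 to 100 kb, 5.65% from 100 to 500 kb and 1.41% beyond.

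**Figure D2:**
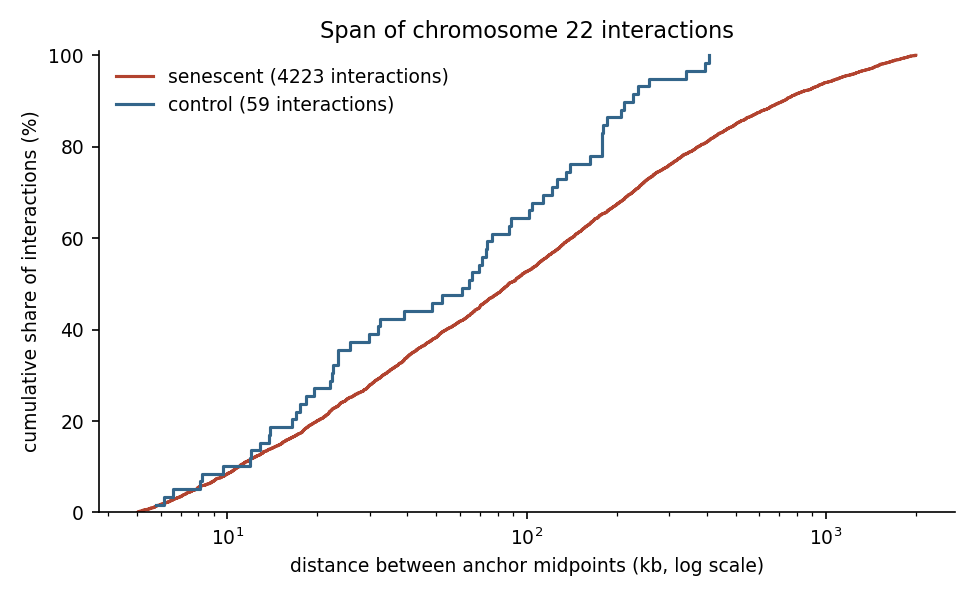
Cumulative share of chromosome 22 interactions by the distance between anchor midpoints, on a log axis, for the senescent library (4223 interactions) and the control library (59 interactions). The control curve reaches 100% at 407 kb, where the senescent curve still has the 15.1% beyond 500 kb to come.

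The deposited significance value did not follow the number of PETs alone. All 628 senescent interactions of 1 PET that spanned at least 500 kb had a value under 0.01, and none of the 550 of 1 PET under 20 kb did. Of the 418 with 2 PETs, 111 (26.6%) were under 0.01. In the control library 1 of 47 interactions with 1 PET and 5 of 12 with 2 PETs were under it.

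Hubs are anchors joined to many others. The 8 most connected senescent anchors had 23 to 30 partners, were 14.6 to 25.7 kb wide and overlapped no control anchor. Of all 1796 senescent anchors of the chromosome, 54 (3.01%) overlapped one, so most others overlapped none either. The first hub was 38595837 to 38618180, known to hold MAFF, with 30 partners and 51 PETs. Its partners within 100 kb numbered 11 and those beyond 500 kb numbered 3, and 11 of its PETs went to 1 anchor 78.5 kb away. The sixth was 38564633 to 38579275, known to lie at the start of PLA2G6, a phospholipase gene, with 24 partners. The eighth was 38699877 to 38716140, known to lie at CSNK1E, with 23 partners. Each of these was joined to the first, and RefSeq lists no protein-coding gene between PLA2G6 and MAFF and 2 between MAFF and CSNK1E. The fourth was 38160605 to 38183848 in the TRIOBP stretch, with 25 partners, of which 14 lay within 100 kb, and 32.6% of its 46 PETs went to the neighbouring anchor named above.

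The second, 39683715 to 39709407, is known to lie next to RPL3, a ribosomal protein gene, on its lower-coordinate side, towards PDGFB, a growth factor gene. It had 28 partners, and 10 of them lay over 500 kb away, as far as 1882 kb on the side of higher coordinates. The third, 39912659 to 39930579, is known to hold ATF4, the gene of a transcription factor of the stress response to limiting amino acids. It had 26 partners at a median distance of 354 kb, 10 of them over 500 kb away. The fifth, 30633997 to 30654797, is known to hold LIF, with 25 partners within 695 kb on the side of lower and 674 kb on that of higher coordinates. The seventh, 46362340 to 46377693, is known to hold the start of WNT7B, a WNT ligand gene. It had 24 partners, 19 of them on the side of lower coordinates, with 27 of its 35 PETs.

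**Figure D3:**
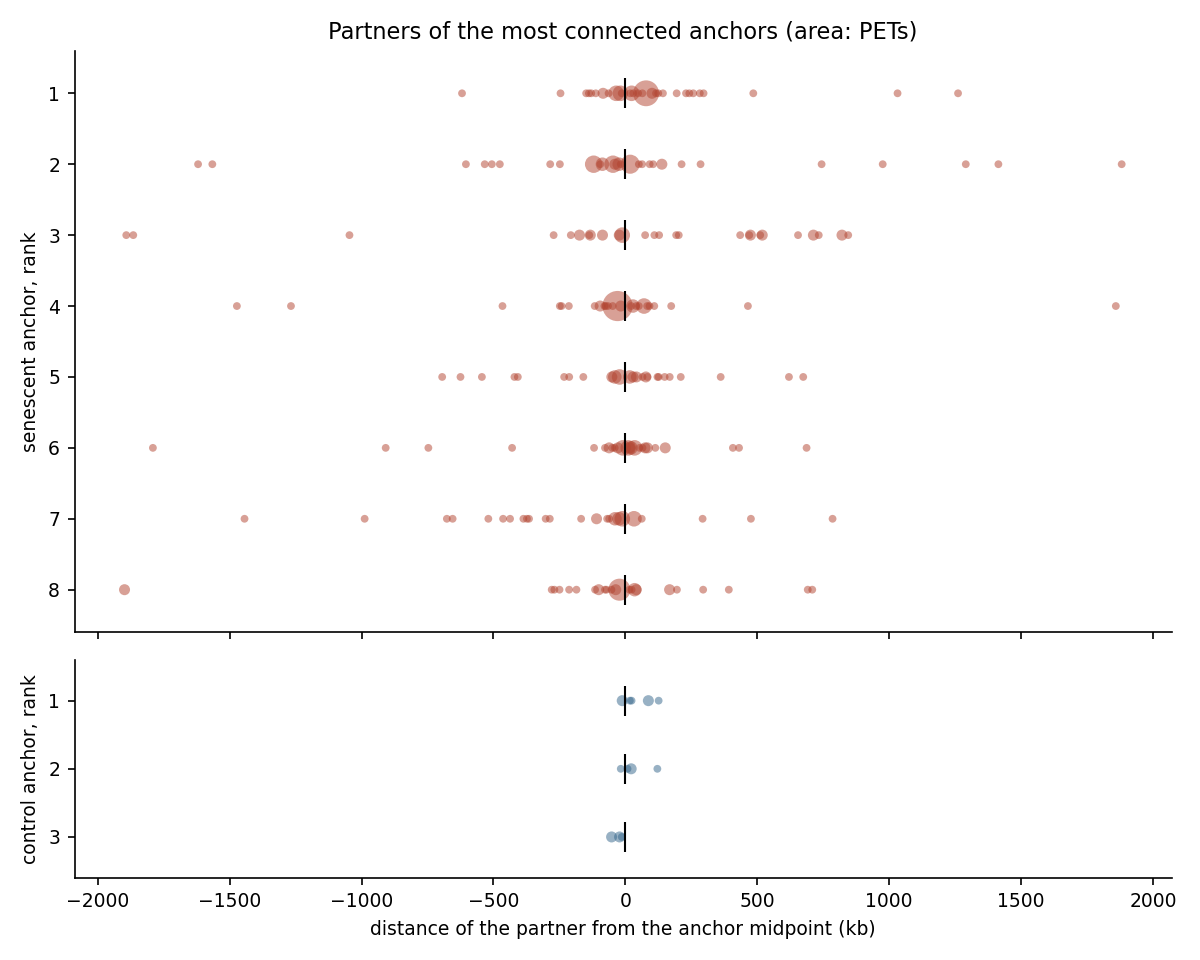
Partners of the 8 most connected senescent anchors (top) and the 3 most connected control anchors (bottom), placed by distance from the anchor midpoint in kb, with point area by PETs. Senescent partners reach up to 1899 kb away, while the control anchors shown have none beyond 126 kb. The fourth control anchor, not shown, has a partner 342 kb away.

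Control hubs were narrow and had few partners. The first, 40904467 to 40909698 in the MRTFA stretch, had 5 partners and 7 PETs. The next were 46104224 to 46107104 with 4 partners and 46126555 to 46128729 with 3, both in the stretch known to hold ATXN10, the gene of ataxin 10. The other 5 of the first 8 had 3 partners and 4 PETs each, namely 36024375 to 36026844, 36213301 to 36215531, 37722567 to 37725404, 40993247 to 40995252 and 40998417 to 41003284. Of these 8 anchors, 3 overlapped no senescent anchor, against 11 of all 68 control anchors, and no difference is read from so few. The median anchor had 4 senescent partners against 1 control partner, and 14.6% of senescent and 51.5% of control anchors had 1 partner.

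Width and partners moved together in the senescent library, with Spearman's rho of 0.42 over 1796 anchors, and not in the control library (rho of 0.00 over 68 anchors). The points share libraries and depth, and a wider anchor can take up more PETs. Senescent anchors of 2 to 3 kb had a median of 3 partners and those over 10 kb had 12.5. Per 10 kb of anchor the order turned round, with medians of 12.7 and 9.31 partners. Interactions between 2 anchors over 10 kb numbered 44, and 45.5% of them had at least 2 PETs, against 12.2% of the 3462 without such an anchor. Their median spans were 118 and 79.7 kb. The 58 wide anchors lay in 24 of the 35 windows, with 8 in 38 to 39 Mb and 6 in 46 to 47 Mb.

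**Figure D4:**
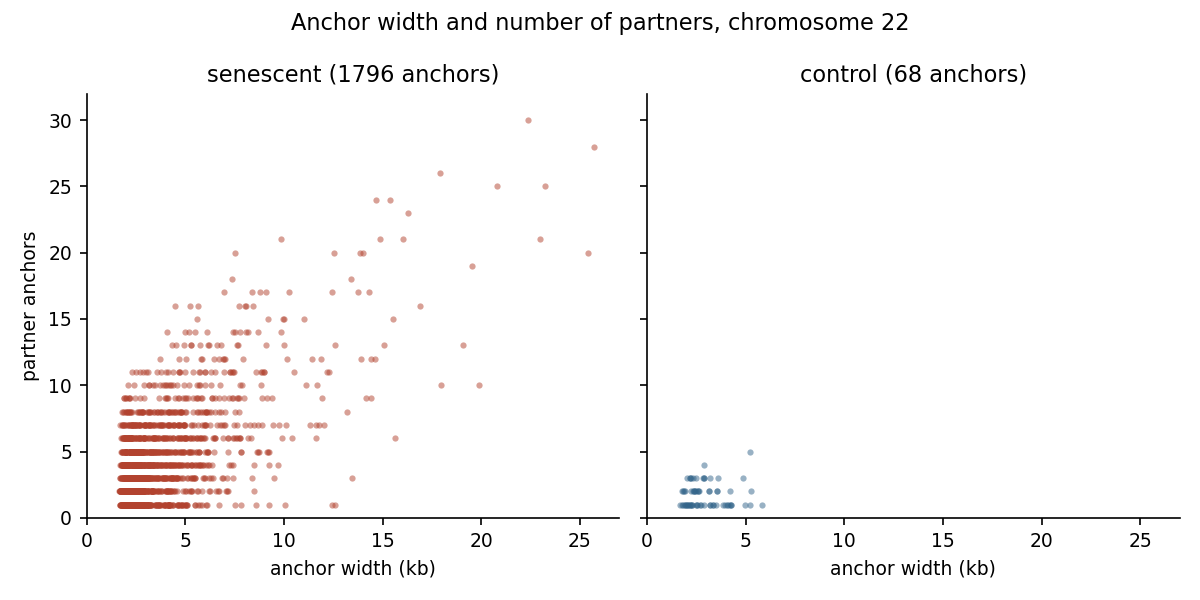
Number of partner anchors against anchor width in kb for every anchor of chromosome 22, with the senescent library left and the control library right on the same axes. The senescent points spread up to 30 partners and 25.7 kb, and the control points stay at or under 5 partners and 5.85 kb.

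Most control sites were listed again in the senescent library, while few senescent sites had been listed in the control library. An overlap of 1 bp or more with a senescent anchor was found for 57 of the 68 control anchors (83.8%, 72.9 to 91.6%), against 69.8% (68.9 to 70.6%) on the other autosomes. The share was 90.3% (80.1 to 96.4%) on chromosome 19, 79.3% (72.4 to 85.1%) on chromosome 20 and 67.2% (58.5 to 75.03%) on chromosome 21. The intervals of chromosomes 19, 20 and 21 overlap that of chromosome 22, and the interval of the other autosomes lies below it. In turn, 54 of the 1796 senescent anchors (3.01%, 2.27 to 3.91%) were overlapped from the control library, against 11.4% (11.2 to 11.6%) on the other autosomes. This share is limited by the number of control anchors, 68 on chromosome 22 and 11739 against 70029 senescent anchors on the other autosomes. The gap therefore largely restates the difference in anchor number. The number of control anchors bears in the same way on the shares of hubs that follow, so no shortage of overlap is read from them. None of the 17 senescent anchors with at least 20 partners overlapped a control anchor (upper limit 19.5%), against 89 of 290 (30.7%, 25.4 to 36.3%) on the other autosomes. Such overlap was found for 1 of 29 on chromosome 19 (3.45%, 0.0873 to 17.8%). It was found for 1 of 12 on chromosome 20 (8.33%, 0.211 to 38.5%) and 2 of 5 on chromosome 21. Of the 155 on chromosome 22 with at least 10 partners, 14 (9.03%, 5.03 to 14.7%) did, against 22.2% (21.1 to 23.4%) on the other autosomes. The share was 4.02% (2.32 to 6.45%) on chromosome 19, 14.5% (9.58 to 20.6%) on chromosome 20 and 17.6% (10.4 to 26.98%) on chromosome 21. A low share was thus not particular to chromosome 22. Over all senescent anchors, chromosome 19 showed a lower share of overlap than chromosome 22, 1.79% (1.35 to 2.33%).

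Between the sites of both libraries the PETs were few, and which library had more depended on the setting. After merging overlapping anchors, 54 sites held anchors of both. Pairs of these sites carried 34 senescent PETs in 18 pairs and 44 control PETs in 37 pairs, an unscaled ratio of 0.773 (0.479 to 1.24). Sites within 5 kb of each other, when merged too, gave 90 senescent and 53 control PETs, a ratio of 1.70 (1.20 to 2.43). Spans of at least 20 kb gave 17 senescent and 35 control PETs, a ratio of 0.486 (0.255 to 0.891). Of the 37 control pairs, 8 (21.6%, 9.83 to 38.2%) had senescent PETs too. These included the pair of 30590032 to 30596143 and 30597469 to 30611210, with 5 senescent PETs and 1 control PET, and the pair of 39089385 to 39094643 and 39095584 to 39104763, with 6 and 1. The pair of 37648234 to 37652279 and 37722567 to 37734751 had 2 PETs in each library.

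Among the 23 shared sites with at least 10 PETs over both libraries, none had a ratio of PETs per deposited PET whose interval lay above 1, 4 had one below 1 and 19 had one that held 1. A shared site has to be listed in the smaller control table, so the median ratio of 0.507 over these sites describes the sites as chosen. The highest ratio was at 39095584 to 39104763, with 20 senescent PETs and 1 control PET (1.56, 0.2497 to 64.7). It was followed by 43396854 to 43405030 with 19 and 1 PETs (1.48, 0.236 to 61.6) and 39089385 to 39094643 with 24 and 2 (0.937, 0.233 to 8.18). The sites 18512575 to 18517981 and 29435373 to 29442146 both had 11 and 1 PETs. The lowest was at the first control hub, with 3 senescent and 7 control PETs (0.0334, 0.00558 to 0.147). Next were 36230484 to 36238341 in the RBFOX2 stretch, with 7 PETs in each library, and 46104224 to 46107104 in the ATXN10 stretch, with 5 in each. The site 41031397 to 41035827 had 8 and 3 PETs, and 46126024 to 46128729 had 15 and 5.

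The control contacts fell into 16 clusters of joined anchors, of which 8 were 1 interaction each. The 5 with at least 5 PETs held 51 of the 71 control PETs (71.8%) in 1627 kb, and 251 of the 5177 senescent PETs (4.85%). These clusters were chosen by their control contacts, so lower ratios within them are a description of that choice. The largest, from 35964594 to 36420435 in the RBFOX2 stretch, joined 16 control anchors. It held 52 senescent and 20 control PETs, a ratio per deposited PET of 0.203 (0.119 to 0.359). The cluster from 40893535 to 41034300 in the MRTFA stretch held 14 and 12 PETs (0.0911, 0.0391 to 0.215). That from 46072723 to 46228534 in the ATXN10 stretch held 15 and 9 (0.130, 0.0533 to 0.337). In these 3 clusters the PETs were of like number in both libraries or up to 2.60 times as many in the senescent library, although its table was 12.8 times larger.

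Of the other 2 clusters with at least 5 control PETs, 1 had a ratio per deposited PET above 1 and 1 below it. That from 30016900 to 30609883, which ends short of the LIF hub and is known to hold MTMR3, a phosphoinositide phosphatase gene, held 112 senescent and 5 control PETs (1.75, 0.727 to 5.49). That from 37649758 to 37931208 held 58 and 5 (0.905, 0.366 to 2.89), and both intervals hold 1. Outside the 5 clusters the chromosome held 4926 senescent and 20 control PETs, a ratio per deposited PET of 19.2 (12.4 to 31.5), which again follows from the choice of the clusters.

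**Figure D5:**
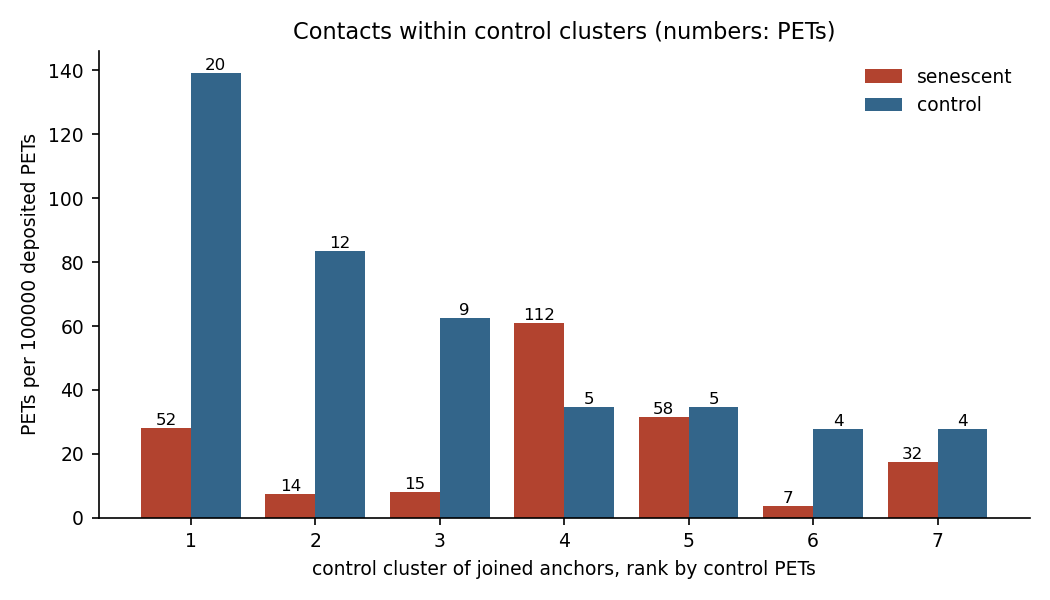
PETs per 100000 deposited PETs of each library within the 7 control clusters with at least 4 control PETs, ranked by control PETs, with the PETs written above the bars (senescent left, control right). The senescent bar is the lower one in 6 of the 7 clusters, and the exception is the fourth cluster, with 112 senescent and 5 control PETs.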

How the data were processed

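METTL3 HiChIP was analysed in 2 libraries, 1 senescent and 1 control. Per the submitters' processing notes, HiC-Pro 3.1.0 and the hg19 build belong to the authors' pipeline. How anchors and loops were called, how duplicates were removed and which filters applied is not given in the sources used here. No header stands on either deposited table. Their whole numbers were taken as raw counts of PETs, and the last column as the authors' deposited p-value or q-value, which of them not being stated. The tables list pairs with at least 1 PET and are not sequencing depths (184165 senescent and 14373 control PETs), so an unlisted pair gives no upper limit.

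Windows, spans, widths, partners and overlaps were computed in Python 3.11.15 with scipy 1.17.1, networkx 3.6.1, pandas 2.3.3 and numpy 2.4.6. Windows of 1 Mb were filled by contact midpoint, and ratios are senescent over control, per deposited PET unless stated. Shares have exact Clopper-Pearson intervals, ratios exact conditional binomial intervals and medians order-statistic intervals. Those of ratios and medians were checked on simulated independent draws, which hold no copies and no shared anchors. Copies of 1 molecule would make all these intervals too narrow. Coordinates are 1-based. With 1 library per group no test was possible and no p-value was computed.

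The members and rules were chosen with earlier results of these data known. Named were the 8 fullest windows of each library and windows with at least 10 control PETs, the 5 interactions with the most PETs, the 3 longest, the 8 anchors with the most partners, and the 5 highest and 5 lowest shared sites with at least 10 PETs. The planned gene lists need an hg19 annotation, which was not used here, so no list was counted, and gene names are landmarks recalled from the hg19 map. The clusters of control contacts and the split of the 36 to 37 Mb window were added after the values were seen.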

Additional observations from a re-analysis of the deposited data

How the results depend on the processing

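The share of chromosome 22 among autosomal interactions was higher in the senescent library under all 4 alternatives, with ratios of 3.80 (at least 2 PETs) to 7.72 (without the 36 to 37 Mb window, chosen after seeing the data), against 5.85. The share of senescent interactions with at least 2 PETs was 9.15% for spans of at least 20 kb, against 20.9% in the control library. At a threshold of 3 PETs it was 4.40%, against 0 of 59 control interactions, whose upper limit of 6.06% lets no order be read. The ratio of median spans, 1.36, was 0.413 with at least 2 PETs, where the control library had 12 interactions. It was 0.977 up to 500 kb, a limit chosen after seeing the data. The limits of these ratios, taken from those of the medians, were 0.241 to 1.20 and 0.649 to 2.59. Both hold 1, so no reversal is read. Weighting anchors by interactions raised the ratio of median widths to 1.43. Scaling to chromosome 22 left 4 windows at least 2-fold higher and put 5 at least 2-fold lower. Windows of 500 kb gave 11 higher and 2 lower, and windows of 2 Mb gave 10 and 0. Counting anchors within 5 kb gave 95.6% of control anchors near a senescent one and turned the PET ratio between shared sites to 1.70. The largest number of partners was 10 with at least 2 PETs, and the highest density was 47.8 partners per 10 kb. The causes of these shifts were not tested. No paired analysis was possible because each group has 1 library. With 71 control PETs, control values by window rest on at most 20 PETs.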
